A study of Rattus norvegicus with 12 samples.

Results

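The genes described here are 10 that natural killer (NK) cells and cytotoxic T cells use to kill: Prf1, Gzma, Gzmb, Gzmk, Nkg7, Ctsw, Klrk1, Klrd1, Ncr1 and Il2rb. They were chosen by symbol, through the accession that each array probe carries. All 10 were on the array, with 12 probes of 30367, and the array held 26903 genes or unnamed accessions in all. Gzmb and Klrk1 had 2 probes each, and the other 8 genes had 1.

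RNA of L6 dorsal root ganglia, which hold the cell bodies of sensory neurons, was taken from male Fischer 344 rats, an inbred strain, and hybridised to 12 one-colour arrays. Rats of the group young_AL were 6 months old and ate ad libitum, and those of old_AL were 25 to 28 months old and ate ad libitum as well. Rats of old_CR were as old as old_AL but were given food on 3 days of the week from an age of 6 weeks, a restriction of about 40%. Each group had 4 rats and 4 arrays, so p-values below measure the spread between the arrays of a group.

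Cytotoxic lymphocytes store perforin and granzymes in granules and release them onto a target cell, where perforin opens the membrane and granzymes, which are serine proteases, cleave proteins inside. Receptors on the NK cell surface decide whether the granules are released, and interleukin 15 keeps the cells alive through the receptor chain that Il2rb encodes. In peripheral nerve and ganglia such cells are few in health and enter after injury or infection. Aged Fischer 344 rats are also known for a leukaemia of large granular lymphocytes, cells of this cytotoxic kind, and the labels give no health record for the rats measured here.

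The unit used throughout is the level, a probe's processed signal as a percent of its own array's 75th percentile. A difference is between group means of log2 levels, given with its standard error (SE). A gene was called when limma's p-value, adjusted by the Benjamini-Hochberg method over all genes tested, was below 0.05. Levels of different probes are not compared with each other, because probes differ in brightness for the same amount of RNA.

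Array old_AL 1 was unlike every other array: its 75th percentile was 7327 against 2627 to 3103, it had 4369 uneven spots against 1 to 215, and it correlated less with the rest, with a median of 0.929 against 0.978 to 0.995. Results are therefore given on the 11 other arrays, with n = 3 for old_AL and n = 4 for each other group, and on all 12 beside them. Among those 11, array old_AL 4 had a compressed range, with a 75th percentile 35 times its 25th, against 61.2 to 73.0 on the others. Fits that also leave out old_AL 2 rest on old_AL 3 and old_AL 4 alone (n = 2 for old_AL). The young_AL arrays had a slide to themselves, so slide and age cannot be told apart. The arrays of old_AL and old_CR shared a slide but lay in different rows of it, so row and diet cannot be told apart. The young_AL arrays lay in row 2 of their slide, as old_CR did of theirs, and the old_AL arrays alone lay in row 1. Row and age therefore cannot be told apart either when old_AL is compared with young_AL. As a check of the tissue, all 12 neuronal marker genes and all 9 markers of satellite glia and Schwann cells that were on the array passed the filter on dim probes.

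Perforin and 3 granzymes carry the main result, and the 300 bases around their start sites are shown first because all 4 were highest on the same array. The windows run from 250 bases before to 50 bases after the start, 5′ to 3′ on the gene's strand, from RefSeq on the build GRCr8. They lie at chr20:29788790-29789089 on the plus strand for Prf1, chr2:46485647-46485946 on the minus strand for Gzma, chr15:34462420-34462719 on the minus strand for Gzmb and chr2:46581966-46582265 on the minus strand for Gzmk. Capitals mark matches, on either strand, to 3 short motifs: the RUNX core TGTGGT, the ETS-type AGGAAG and the T-box core AGGTGT, named for factor families known to act in cytotoxic lymphocytes.
Prf1: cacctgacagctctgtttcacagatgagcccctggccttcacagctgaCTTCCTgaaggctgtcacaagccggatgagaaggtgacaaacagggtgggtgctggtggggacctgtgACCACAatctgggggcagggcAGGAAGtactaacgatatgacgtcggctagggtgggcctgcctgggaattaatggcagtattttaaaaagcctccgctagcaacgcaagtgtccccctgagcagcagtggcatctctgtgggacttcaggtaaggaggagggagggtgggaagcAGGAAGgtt
Gzma: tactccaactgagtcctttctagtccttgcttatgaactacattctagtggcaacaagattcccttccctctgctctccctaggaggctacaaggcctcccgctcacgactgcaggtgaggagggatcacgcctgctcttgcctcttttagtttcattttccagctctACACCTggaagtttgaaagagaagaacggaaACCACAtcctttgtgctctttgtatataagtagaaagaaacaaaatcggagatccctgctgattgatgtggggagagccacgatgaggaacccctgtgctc
Gzmb: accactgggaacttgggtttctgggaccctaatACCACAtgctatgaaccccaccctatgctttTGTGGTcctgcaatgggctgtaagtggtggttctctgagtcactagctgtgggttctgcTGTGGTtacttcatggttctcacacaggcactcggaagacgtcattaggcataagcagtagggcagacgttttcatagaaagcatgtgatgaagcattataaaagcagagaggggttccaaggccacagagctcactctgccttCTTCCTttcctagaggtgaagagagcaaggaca
Gzmk: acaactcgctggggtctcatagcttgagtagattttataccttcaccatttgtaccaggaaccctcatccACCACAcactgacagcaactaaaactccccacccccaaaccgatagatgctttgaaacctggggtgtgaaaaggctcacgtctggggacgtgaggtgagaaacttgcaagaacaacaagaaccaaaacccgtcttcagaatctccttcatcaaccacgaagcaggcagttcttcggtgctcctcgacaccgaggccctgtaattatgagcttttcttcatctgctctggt
The RUNX core was in all 6 promoter windows that the table held for these genes (Prf1, Gzma, Gzmb, Gzmk, Nkg7 and Klrk1), and in 17.3% of all 33469 windows of that length. Gzmb had 3 such matches, at 217, 186 and 127 bases before its start, and each of the other genes had 1. The ETS-type letters were in 3 of the 6 windows (Prf1, Gzmb and Nkg7) and in 34.5% of all, and the T-box core was in that of Gzma alone and in 13.6% of all. The motifs were chosen with the sequences in view, and a match describes letters, not binding. Klrd1, Ncr1, Il2rb and Ctsw were not in the table. Gzma and Gzmk are neighbours on chromosome 2, with 0 protein-coding genes between them, and so are Klrd1 and Klrk1 on chromosome 4.

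On the 11 arrays most granule genes read higher in old rats fed ad libitum, above all on array old_AL 2, than in young rats or restricted old rats. For Prf1, the pore-forming perforin, the level was 1.11, 0.775, 1.56 and 1.29 on the young_AL arrays and 46.7, 3.40 and 4.79 on old_AL 2, 3 and 4. On the old_CR arrays it was 1.85, 1.17, 1.62 and 0.669. Every old_AL array of the 11 lay above every array of both other groups, and old_AL 2 lay far above the rest of its own group. On old_AL 1 the Prf1 level of 1.27 was not well above background. The difference of old_AL from young_AL was 2.99 ± 0.80 (adjusted p = 0.0724) on 11 arrays, 1.81 ± 0.42 (adjusted p = 0.0612) when old_AL 2 was left out too, and 2.28 ± 0.88 (adjusted p = 0.577) on all 12.

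Gzma encodes granzyme A, a trypsin-like granule protease. Its level ran from 2.02 to 2.38 on the young_AL arrays, was 22.8, 3.65 and 4.73 on old_AL 2, 3 and 4, and was 1.93, 1.62, 2.48 and 1.76 on the old_CR arrays. Here too the old_AL arrays stood clear of the other groups, which overlapped each other. Gzma was the granule gene with the tightest young group, with an SD of 0.10 on the log2 scale (n = 4). Its difference from young_AL was 1.75 ± 0.52 (adjusted p = 0.0953) on 11 arrays and was called without old_AL 2, at 0.93 ± 0.17 (adjusted p = 0.0389). On old_AL 1 Gzma read 0.314, not well above background and below every other array, and with that array kept the Gzma difference was 0.61 ± 0.97 (adjusted p = 0.708).

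Gzmk encodes granzyme K, another trypsin-like protease. Levels were 1.21, 1.31, 1.01 and 1.28 in young_AL, 25.8, 2.83 and 2.95 on old_AL 2, 3 and 4, and 1.83, 1.20, 0.947 and 0.838 in old_CR. The lowest of these old_AL arrays read above the highest old_CR array. The age difference of Gzmk was 2.32 ± 0.68 (adjusted p = 0.0924), and it was 1.27 ± 0.27 (adjusted p = 0.0549) without old_AL 2. On all 12 arrays it was 1.26 ± 0.997 (adjusted p = 0.577), so keeping old_AL 1 lowered the Gzmk difference and widened its error.

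Gzmb encodes granzyme B, the granzyme that cleaves after aspartate and activates caspases. The probe taken for the gene read 3.12, 1.66, 1.38 and 1.44 in young_AL, 21.9, 3.23 and 2.07 on old_AL 2, 3 and 4, and 2.40, 1.65, 2.14 and 1.53 in old_CR. The second probe read 1.31 to 2.24 in young_AL, 15.8, 2.59 and 2.77 on old_AL 2, 3 and 4, and 1.41 to 2.03 in old_CR. Both probes were highest on old_AL 2, but by the first probe the old_AL arrays overlapped the young ones. The age difference was 1.56 ± 0.69 (adjusted p = 0.217) by the first probe and 1.51 ± 0.56 (adjusted p = 0.159 with every probe tested on its own) by the second. Without old_AL 2 the first probe's difference was 0.53 ± 0.35 (adjusted p = 0.377), against 1.56 with it, and on all 12 arrays it was 1.52 ± 0.61 (adjusted p = 0.577). On old_AL 1 the first probe read 4.80, well above background, and the second 0.510, not well above background. Every Gzmb value on 12 arrays, here and below, therefore includes a reading that the second probe did not share.

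Nkg7, a protein of the granule membrane needed for granules to be released, had levels of 6.80, 5.26, 5.73 and 7.03 in young_AL. On old_AL 1, 2, 3 and 4 it had 7.85, 56.7, 10.2 and 8.51, and in old_CR 7.53, 7.90, 6.25 and 4.99. Nkg7 was well above background on all 12 arrays, and all 4 old_AL arrays read above all 4 young ones. The difference from young_AL was 1.47 ± 0.55 (adjusted p = 0.161) on 11 arrays, 0.60 ± 0.20 (adjusted p = 0.119) without old_AL 2, and 1.19 ± 0.53 (adjusted p = 0.577) on 12.

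Ctsw, or cathepsin W, a cysteine protease made mainly by NK cells and cytotoxic T cells, followed another order. Its levels were 0.83, 0.301, 0.797 and 0.992 in young_AL, 1.70, 2.26 and 8.96 on old_AL 2, 3 and 4, and 1.58, 1.65, 1.20 and 1.01 in old_CR. The high array was old_AL 4, not old_AL 2, and no group overlapped another among the 11 arrays. Margins were narrow, with 1.70 in old_AL against 1.65 in old_CR, and 1.01 in old_CR against 0.992 in young_AL. The difference of old_AL from young_AL was 2.29 ± 0.58 (adjusted p = 0.0656), and on all 12 arrays it was 1.55 ± 0.75 (adjusted p = 0.577). Without old_AL 4 the Ctsw difference was 1.55 with age (adjusted p = 0.101) and -0.56 for old_CR against old_AL (adjusted p = 0.495). Array old_AL 4 read more than 2-fold above every other array for 978 of the genes tested, Ctsw among them, against 2 to 73 genes on each other array, and the part of that array's compressed range in the Ctsw value was not tested.

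**Figure D1:**
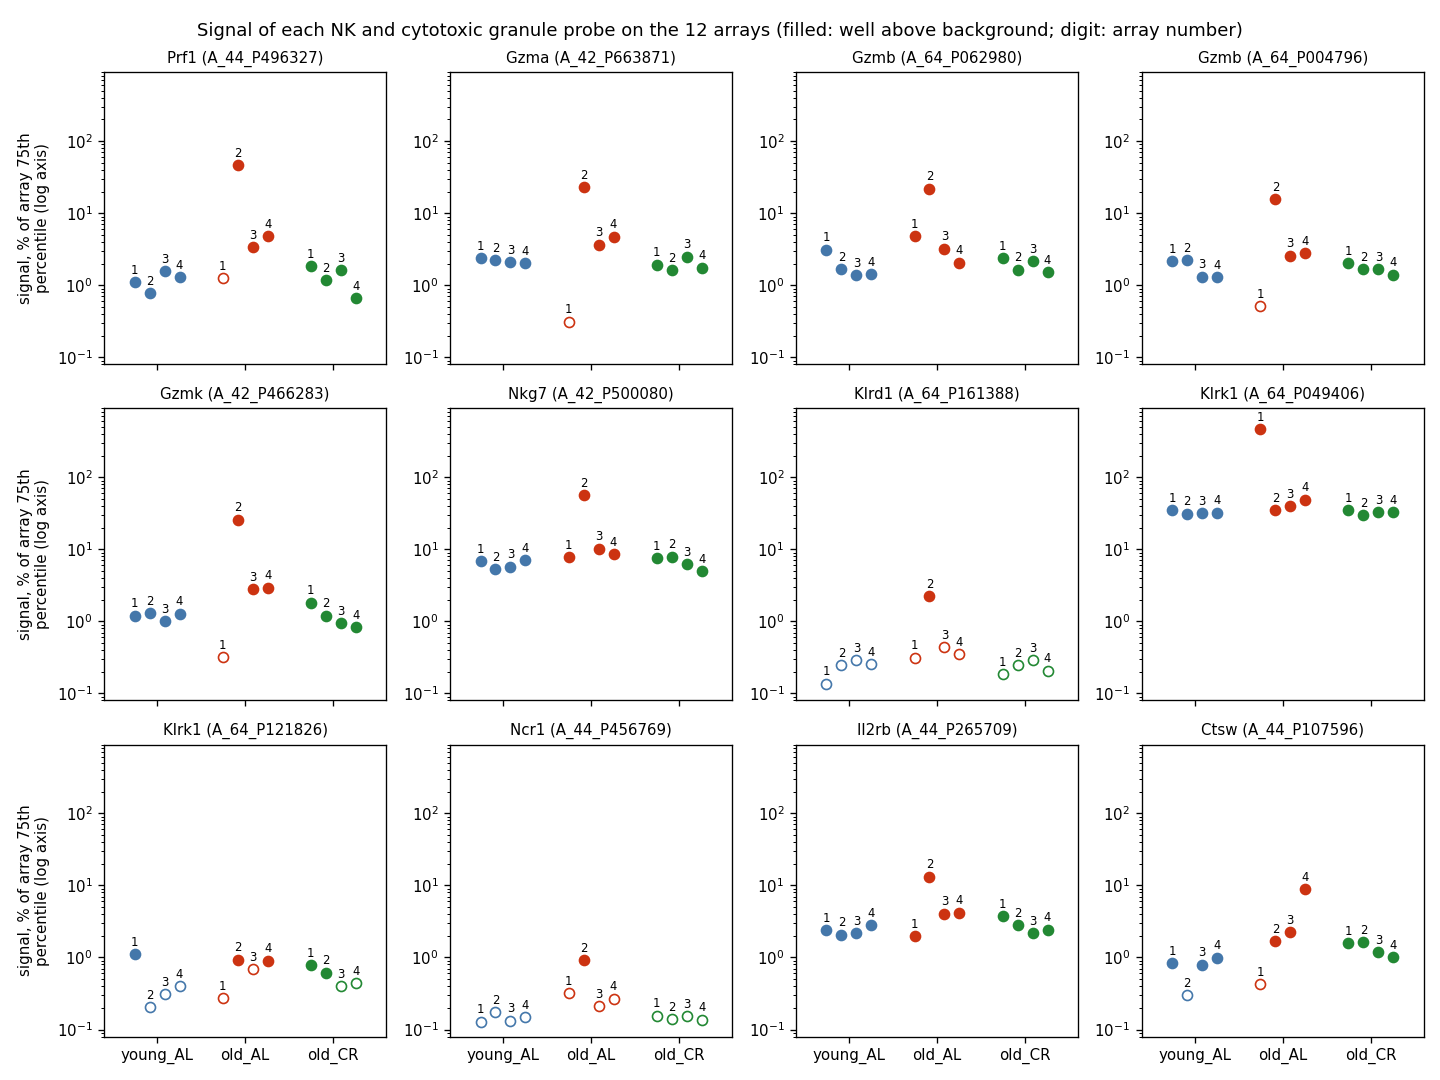
Level of each of the 12 probes on the 12 arrays, in percent of the array's 75th percentile on a log axis, by group; filled points were well above background and the digit is the array number. Array old_AL 2 stands highest for Prf1 (46.7), the granzymes, Nkg7, Il2rb, Klrd1 and Ncr1, whereas old_AL 4 is highest for Ctsw at 8.96 and old_AL 1 for the brighter Klrk1 probe at 465.

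Among the receptor genes, Klrd1 and Ncr1 were not well above background on most arrays. Klrd1 encodes CD94, which pairs with NKG2 chains to read class I molecules, and its level was 0.137 to 0.292 in young_AL, 0.316, 2.25, 0.436 and 0.353 on old_AL 1 to 4, and 0.185 to 0.292 in old_CR. Ncr1 encodes NKp46, an activating receptor that marks NK cells, and read 0.129 to 0.173 in young_AL, 0.320, 0.919, 0.210 and 0.269 on old_AL 1 to 4, and 0.137 to 0.157 in old_CR. Old_AL 2 was the only array of the 12 on which either gene was well above background. Any fold between groups therefore rests on that 1 array, and the dim old_AL arrays enter it at their own readings, so it is no firm lower bound. With dim arrays of the other group raised to their lowest signal well above background, the old_AL mean on 11 arrays was 2.45-fold that of young_AL for Klrd1. It was 1.32-fold for Ncr1, and on 12 arrays the folds were 2.01 and 1.27. Against old_CR the folds computed in this way were 2.19 and 1.16 on 11 arrays. Neither gene was tested, since the filter asked for 4 arrays well above background.

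Klrk1 encodes NKG2D, an activating receptor for stress ligands, and its 2 probes differed. The probe taken for the gene, the brighter, read 35.2, 31.2, 31.8 and 32.2 in young_AL, 465, 34.8, 40.1 and 48.9 on old_AL 1 to 4, and 35, 29.6, 33.1 and 32.8 in old_CR. The other probe read 1.11, 0.204, 0.311 and 0.399 in young_AL, 0.275, 0.935, 0.694 and 0.901 on old_AL 1 to 4, and 0.784, 0.616, 0.404 and 0.440 in old_CR, and was well above background on 5 arrays. Neither probe showed the high reading of old_AL 2 that the granule genes had. The 2 probes also opposed each other on old_AL 1, where the first gave its highest level and the second a reading not well above background. The age difference by the first probe was 0.33 ± 0.11 (adjusted p = 0.116) on 11 arrays and 1.20 ± 0.67 (adjusted p = 0.577) on 12, a value that rests on the reading of old_AL 1, and by the second 1.03 ± 0.49 (adjusted p = 0.25 with every probe tested on its own). Of the genes listed as ligands of NKG2D, 2 were on the array and 1 was tested, Raet1l. It read 0.275 to 0.688 in young_AL, 0.303, 0.612 and 1.28 on old_AL 2, 3 and 4, and 0.155 to 0.287 in old_CR. Among the arrays of old rats only old_AL 4 was well above background, so no difference is given.

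Il2rb encodes the chain shared by the receptors for interleukins 2 and 15. Its level was 2.40, 2.07, 2.15 and 2.83 in young_AL, 2.0, 13.3, 4.08 and 4.19 on old_AL 1 to 4, and 3.74, 2.81, 2.17 and 2.44 in old_CR. On the 11 arrays old_AL lay above both other groups, but the highest restricted array, at 3.74, came close to the lower old_AL arrays. The difference from young_AL was 1.38 ± 0.38 (adjusted p = 0.0801), 0.82 ± 0.21 (adjusted p = 0.0718) without old_AL 2 and 0.98 ± 0.46 (adjusted p = 0.577) on 12 arrays.

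Taking the age comparison as a whole, none of the 8 tested genes was called on 11 arrays, where 2.99% of the 20848 genes tested were called. At an unadjusted p below 0.05 the count was 8 of 8, all higher in old_AL, against 14.5% of all genes. The old_AL and young_AL arrays did not overlap, with old_AL higher, for 6 of the 8 (Prf1, Gzma, Gzmk, Nkg7, Il2rb and Ctsw), against 11.9% of all genes. All 8 differences were above 0, as were 59.4% of all, and their median was 1.65, against 0.04 over all genes tested. Of the 8 genes, 7 were well above background on all 11 arrays and Ctsw on 10, so none of them passed the filter through old_AL alone. With old_AL 2 left out, old_AL held only old_AL 3 and the compressed old_AL 4 (n = 2). The median was then 0.87, 7 of 8 did not overlap (19.1% of all genes) and Gzma was called higher (1.28% of all genes). The part of the compressed range in these values was not tested. With all 12 arrays the median was 1.23, only Nkg7 did not overlap (4.47% of all genes), 0 of 8 were called (0.0144% of all genes) and 3 of 8 had an unadjusted p below 0.05 (4.3% of all genes). In bulk tissue, more cells of a type and more RNA per cell cannot be told apart.

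Restricted old rats read lower than old rats fed ad libitum for the same genes. The difference of old_CR from old_AL on 11 arrays was -2.88 ± 0.80 (adjusted p = 0.0824) for Prf1, -2.38 ± 0.68 (adjusted p = 0.0873) for Gzmk and -1.93 ± 0.52 (adjusted p = 0.0788) for Gzma. It was -1.47 ± 0.69 for Gzmb, -1.37 ± 0.55 for Nkg7, -1.29 ± 0.58 for Ctsw, -1.16 ± 0.38 for Il2rb and -0.33 ± 0.11 for Klrk1, with adjusted p from 0.109 to 0.208. None of the 8 was called, against 1.06% of all genes, and 6 of 8 had an unadjusted p below 0.05 with old_CR lower, against 19.3%. All 8 differences were below 0, as were 63.3% of all. For 6 of the 8 the groups did not overlap, with old_CR lower, against 15.3% of all genes, and the median difference was -1.42, against -0.06 over all genes. Without old_AL 2, differences nearer 0 were called for Gzma (-1.11 ± 0.17, adjusted p = 0.0281) and Gzmk (-1.33 ± 0.27, adjusted p = 0.0416) and one farther from 0 for Klrk1 (-0.44 ± 0.09, adjusted p = 0.0441), where 3.82% of all genes were called lower. The median was then -0.85, and 7 of 8 had groups apart (25.1% of all genes), with n = 2 for old_AL. On 12 arrays 0 of 8 were called (0% of all genes), 2 had an unadjusted p below 0.05 with old_CR lower (4.72% of all genes), the median was -1.15, and 0 of 8 had groups apart (4.77% of all genes). The differences on 12 arrays were -2.17 ± 0.88 for Prf1, -0.79 ± 0.97 for Gzma, -1.44 ± 0.61 for Gzmb, -1.32 ± 0.997 for Gzmk, -1.10 ± 0.53 for Nkg7, -1.20 ± 0.67 for Klrk1, -0.76 ± 0.46 for Il2rb and -0.55 ± 0.75 for Ctsw, with adjusted p from 0.643 to 0.706.

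Restricted old rats and young rats overlapped in level for most of these genes. The difference of old_CR from young_AL was 0.11 ± 0.74 for Prf1, -0.18 ± 0.48 for Gzma, 0.08 ± 0.64 for Gzmb, -0.06 ± 0.63 for Gzmk, 0.09 ± 0.51 for Nkg7 and 0.22 ± 0.35 for Il2rb. The groups overlapped for each of these and for Klrk1. Ctsw was the exception, with every old_CR array above every young_AL array and a difference of 1.0 ± 0.54 (adjusted p = 0.373). The margin was narrow, with 1.01 on old_CR 4 against 0.992 on young_AL 4. The lowest young reading, 0.301 on young_AL 2, was not well above background. With each further array left out, the Ctsw difference ran from 0.61 to 1.19. None of the 8 was called (2.32% of all genes were), 0 of 8 had an unadjusted p below 0.05 (18.3%), and 1 of 8 had groups apart with old_CR higher (5.56%). With standard errors of up to 0.74, this comparison does not show that the groups are alike. The comparisons share arrays, so the old_AL arrays enter both of the first ones.

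**Figure D2:**
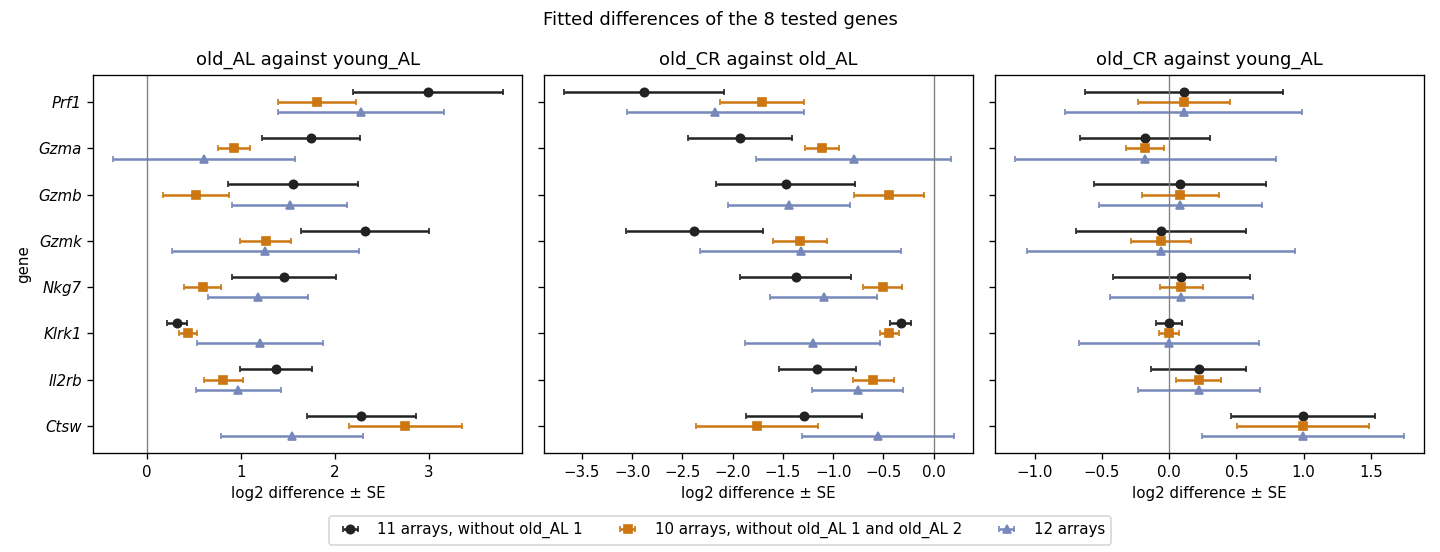
Fitted log2 difference ± SE of the 8 tested genes in the 3 comparisons, on the 11 arrays, on the 10 arrays left without old_AL 2, and on all 12. Differences of old_AL from young_AL lie above 0 and those of old_CR from old_AL below 0 for all 8 genes in each of these fits, and they shrink for Prf1, Gzmk and Nkg7 when old_AL 2 is left out.

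For most of the genes the spread among old_AL arrays came with old_AL 2. The median SD of the 8 genes was 0.20 in young_AL, 1.47 in old_AL (n = 3) and 0.32 in old_CR on the log2 scale, against 0.09, 0.11 and 0.08 over all genes tested. Over old_AL 3 and 4 alone (n = 2) the median SD of the 8 genes was 0.23, against 0.09 over all genes, and that of Ctsw was 1.41. Prf1 had an SD of 2.05 in old_AL, larger than 99.8% of genes, and Gzmk and Gzmb had SDs larger than 99.5%. In old_CR the SD of Prf1 was 0.65, larger than 98.6% of genes, so this gene was also variable where it was low. Its levels there were 0.669 to 1.85, and the lowest level well above background was 0.297 to 0.345 on those arrays. The part of low signal in this spread was not tested.

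Array old_AL 2 was then set against the highest of the other 10 arrays, gene by gene, a comparison chosen after its values were seen. Its reading was more than 2-fold above all 10 for 73 genes, 0.35% of those with a value, and for 6 of the 8 tested genes. Prf1 exceeded the next array 9.75-fold, Gzmk 8.75-fold, Gzmb 6.79-fold, Nkg7 5.55-fold, Gzma 4.83-fold and Il2rb 3.17-fold. These genes held ranks 3, 5, 8, 12, 14 and 32 of all genes in that excess. Ctsw and Klrk1 were not highest there.

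Some other genes of cytotoxic cells, singled out after their values were seen, were also highest on old_AL 2 among the 11 arrays. Ccl5, a chemokine that cytotoxic lymphocytes secrete, read 576 against 43.1 to 91.8 on the other 10 arrays, and Gzmc, another granzyme, read 43.7 against 5.82 to 9.63. Among NK receptors of the Ly49 family, Ly49s5 read 18.2 against 0.123 to 6.47 and Ly49i4 read 17.3 against 0.145 to 0.731. The lectin-like receptor genes Klre1 and Klri1 read 8.13 and 8.48, against at most 1.85 and 4.42. Txk, a kinase of T and NK cells, read 15.3 against 1.62 to 3.5. Other genes of the same lists were highest on old_AL 4 instead: the chemokine gene Xcl1 read 14.8 there and 3.26 on old_AL 2, Klra22 3.19 and 0.850, Klrb1a 1.75 and 0.911, and Cst7 28.6 and 24.8. Granzymes and Ly49 receptors belong to families of closely similar genes, so a probe named for one member may take up RNA of another.

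Set against the mean of old_AL 3 and old_AL 4, old_AL 2 was more than 2-fold higher for 0.768% of all genes. It was so for 6 of the 8 genes, and the median difference of the 8 was 2.53. Array old_AL 2 was singled out because these genes were high on it, so their count and median follow from that choice and lend no support. The count was 4 of 7 tested genes for the other NK receptors (median 1.26), 2 of 10 for other granule and effector molecules (0.22) and 1 of 12 for NK adaptors and kinases (0.43). Of the NK receptors, Ly49s5 (2.68) and Klra22 (-0.85) passed the filter on dim probes only through old_AL arrays, so that count and median lend no support. For T cell markers the count was 2 of 12, with a median of -0.32. Cd3e, a chain of the T cell receptor complex, read 0.601 on old_AL 2 and 6.19 and 1.49 on old_AL 3 and 4. Cd3d read 25.3 there and then 32.2 and 34.1, and Cd3g read 8.63 and then 14.9 and 13.0. Cd8a, Cd247 and Cd27 read above old_AL 3 and 4 there. Cd8a read 6.55 on old_AL 2 against at most 2.54 on the other 10 arrays, Cd247 read 19.4 against at most 12.8, and Cd27 read 3.79 against at most 3.55. Rat T cells and NK cells are both known to carry Cd8a and Cd247, and which cells gave these readings was not tested. Among the 11 arrays Cd3e was highest on old_AL 3, Cd3d on old_AL 4 and Cd3g on old_CR 1, at 16.4.

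Markers of red blood cells moved with the granule genes on this array. Among the 11 arrays, all 5 erythroid markers were highest on old_AL 2 (on old_AL 1 Hbb was higher still, at 11558 against 11285), with a median of 2.27 above the mean of old_AL 3 and 4. Ahsp, a haemoglobin chaperone, read 458 against 67.2 to 157 on the other 10 arrays, and Slc4a1, the red cell anion exchanger, read 83.2 against 6.12 to 25.2. The summed level of the 5 ran from 6928 to 10175 in young_AL, 8361 to 12068 in old_AL and 7245 to 7608 in old_CR. Macrophage markers were highest on old_AL 2 for 8 of 11 genes and neutrophil markers for 0 of 5. The neutrophil markers were raised there all the same: their median difference from the young_AL mean was 2.14, 2.33 and -0.09 on old_AL 2, 3 and 4. The part of blood in the readings of old_AL 2 was not tested.

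**Figure D3:**
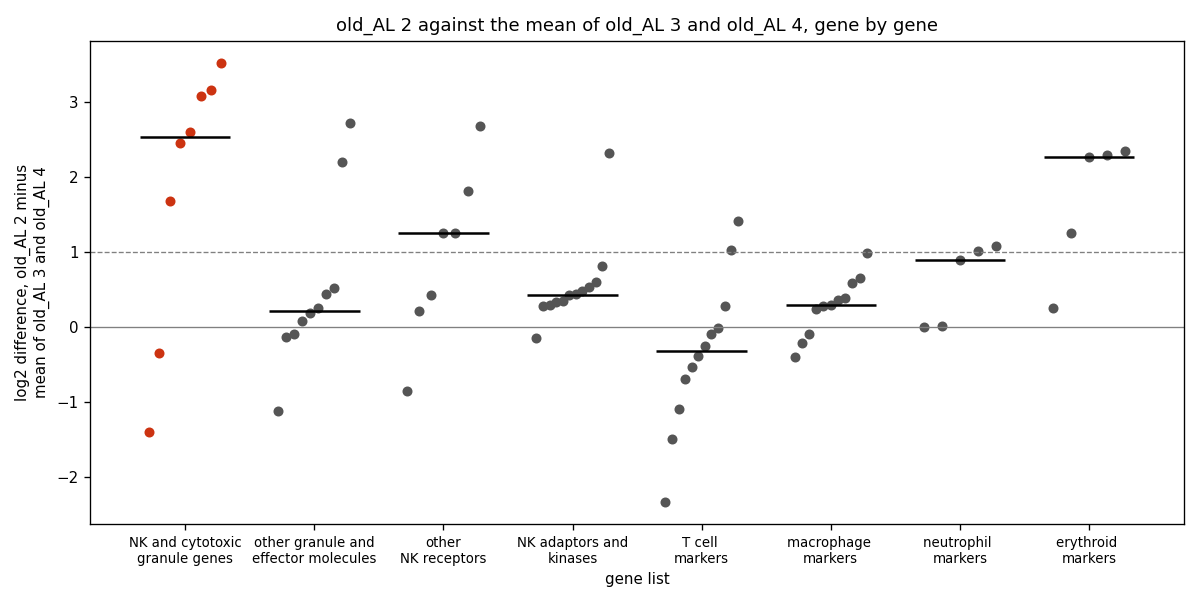
Log2 difference of array old_AL 2 from the mean of old_AL 3 and old_AL 4 for each tested gene of 8 lists, with a bar at the list's median and a dashed line at 2-fold. The NK and cytotoxic granule genes (median 2.53), other NK receptors (1.26) and erythroid markers (2.27) lie mostly above 2-fold, and T cell markers (-0.32) mostly below 0. Array old_AL 2 was singled out after the granule genes were seen to be high on it.

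Other genes of the same cells were tested with age on the 11 arrays. Over all 20848 genes tested, 2.99% were called and 4800 had an unadjusted p below 0.05, and the counts below stand beside these. Of 24 other NK receptor genes on the array 7 were tested, and 0 were called (6 had an unadjusted p below 0.05). Ly49s5 and Klra22 were among those 7, and among the 6, although each was well above background on only 1 of the 4 young_AL arrays. Both passed the filter only through old_AL arrays, so no difference is given for them. Klra5, Klrb1, Klrc1 and Klrh1 were not well above background on any of the 12 arrays, and neither was Ifng, which encodes the interferon that NK cells secrete. Of 12 NK adaptors and kinases, 3 were called higher in old_AL and 0 lower: Hcst, the signalling partner of NKG2D (1.38 ± 0.30, adjusted p = 0.0441), Plcg2, a phospholipase downstream of it (0.96 ± 0.18, adjusted p = 0.0313), and Tyrobp, an adaptor that macrophages carry too (adjusted p = 0.0473). Hcst read 9.98, 6.20, 9.09 and 13.8 in young_AL, 32.3, 23.4 and 19.4 on old_AL 2, 3 and 4, and 22.9, 15.3, 13.6 and 12.5 in old_CR. Without old_AL 2, 0 of these 12 were called, and their median difference was 0.62 against 0.75 with it. Which cells gave the readings of Hcst, Plcg2 and Tyrobp was not tested. Of 10 other granule and effector genes 0 were called (4 at an unadjusted p below 0.05), with Gzmm, granzyme M, at 0.88 ± 0.23 (adjusted p = 0.0703). Of 8 genes of the machinery that releases granules 0 were called (1 at an unadjusted p below 0.05), with Stxbp2 at 0.56 ± 0.17 (adjusted p = 0.0988). Of 13 genes of interleukin 2, 12, 15 and 18 signalling 0 were called (2 at an unadjusted p below 0.05), and Il15 itself differed by 0.13 ± 0.06 (adjusted p = 0.211). Of 6 lymphocyte transcription factors 0 were called (2 at an unadjusted p below 0.05), and Runx3 and Ets1 differed by 0.05 and 0.45.

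Markers of other cells that a ganglion can hold were called with age as well, and their levels stand beside those of the granule genes. Over all 20848 genes tested, 386 were called higher in old_AL. Of 12 T cell markers tested, 1 was called higher in old_AL, Cd8a (2.21 ± 0.34, adjusted p = 0.0197), and Cd28 and Trat1 were never well above background. Of 11 macrophage markers 4 were called higher, among them Gpnmb (1.48 ± 0.19, adjusted p = 0.0139) and Lyve1 (1.09 ± 0.15, adjusted p = 0.0139), and of 5 neutrophil markers 2, Camp (2.28 ± 0.20, adjusted p = 0.0034) and Ngp (2.26 ± 0.32, adjusted p = 0.0155). Without old_AL 2 the counts called higher were 2 of 12 T cell markers (Cd6 and Cd8a), 2 of 11 macrophage markers and 2 of 5 neutrophil markers. The share over all genes was then 1.28%. Summed levels of the T cell list ran from 56.7 to 80.8 in young_AL, 104 to 125 in old_AL and 72.8 to 116 in old_CR. Those of the macrophage list ran from 781 to 1089, 1210 to 1716 and 990 to 1321 in the same order. Such a sum is led by the brightest probes of its list. The part of these cells in the differences of the granule genes was not tested.

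**Figure D4:**
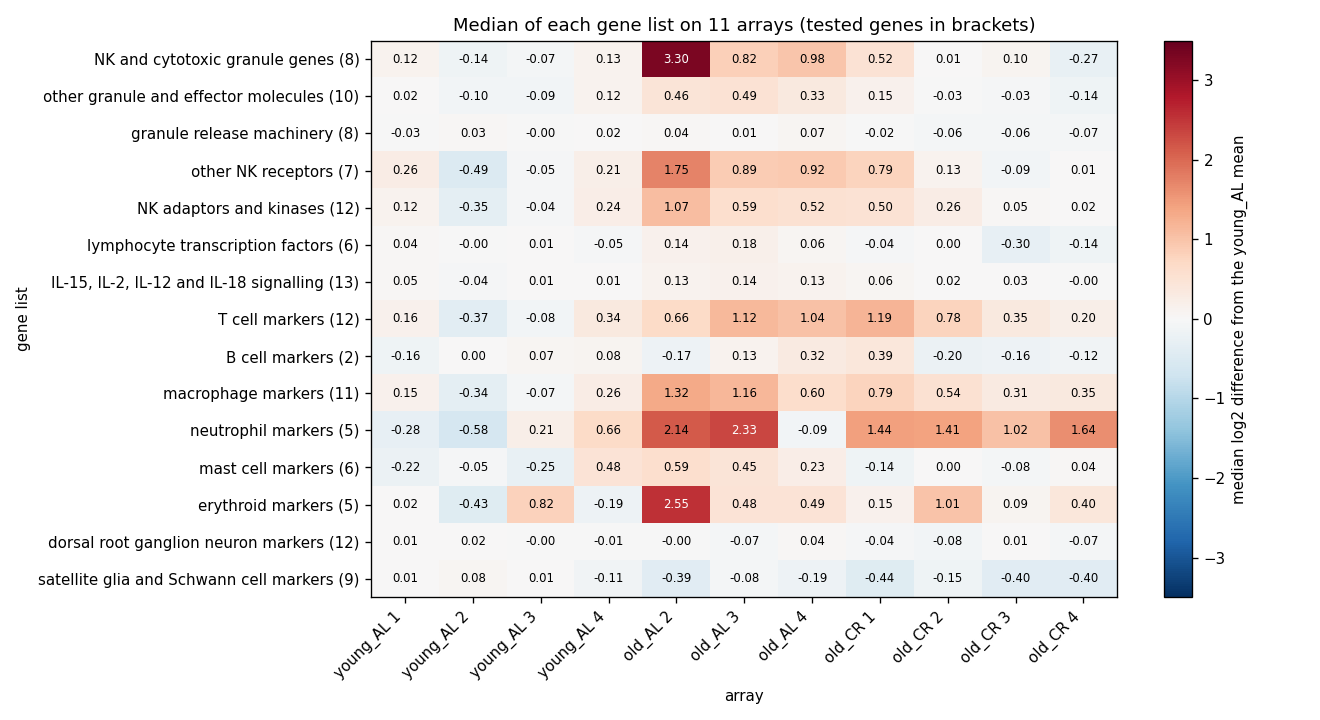
Median log2 difference from the young_AL mean for each gene list (number of tested genes in brackets) on each of the 11 arrays, red above and blue below. The NK and cytotoxic granule genes stand at 3.30 on old_AL 2 and at 0.82 and 0.98 on old_AL 3 and 4, while T cell markers stand at 0.66, 1.12 and 1.04.

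The genes whose profile over the 11 arrays was most like the mean profile of the 8 genes were H1f1, Mtmr1, Tmem176a, Plaat5 and Inpp5d. Likeness was the mean absolute difference of standardised values, 0.202 SD for H1f1 and 0.256 SD for Inpp5d, and it was 0.186 for Prf1 and 0.570 for Ctsw. H1f1 read 5.08 to 6.35 in young_AL, 17.5, 9.43 and 9.59 on old_AL 2, 3 and 4, and 5.70 to 7.63 in old_CR. Genes chosen by this likeness on the same arrays read higher in old_AL by that choice, so their age differences are no separate result. They were 0.99 ± 0.21 for H1f1 and 0.23 ± 0.04 for Inpp5d, a much flatter gene.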

How the data were processed

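Ganglion RNA was put on 12 one-colour (Cy3) arrays, per the labels' protocols. The authors deposited linear spot intensities from Agilent Feature Extraction 10.7, per the submitters' processing notes, background-subtracted per the file headers and not scaled between arrays. The series table held identical intensities (largest difference 0).

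Each of the 58717 gene spots was taken as log2 intensity minus its array's 75th percentile, with outlier spots set missing and a probe's spots averaged. A probe needed 4 arrays well above background (a share of at least 0.5 of its spots), and a gene was its brightest probe. Of 30367 probes, 17998 were given a symbol by accession from RefSeq, which served for names and neighbours because the files name an older build. Where a whole group was not well above background, each of its arrays was set, for the fold, at its lowest signal that was well above background, or at the probe's reading if that was higher. Dim arrays of the brighter group kept their readings.

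The package limma 3.58.1 (lmFit, eBayes, all groups in one fit, Benjamini-Hochberg adjustment) was run in R 4.3.3, after a test on simulated data. The number of arrays limits the precision. The 10 genes, the 15 other lists and the choice to leave out old_AL 1 were made with earlier results of these data known. Named genes are the 10, up to 2 of each list with the smallest p with age, and the 5 most alike in profile, and any other was picked after its values were seen. Replicate numbers did not pair arrays: over 10 pairs with the same number, deviations from group means correlated between -0.09 and 0.09. Alternatives covered normalization, background correction, the filter, probes, spread, samples, the replicate block and each array left out.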

Additional observations from a re-analysis of the deposited data

Results flagged for a closer look

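In the old_AL group of 4 arrays, the Nkg7 reading of old_AL 2 was far from the others, with a gap to the next array of 0.867 of the group's whole log2 range. The level was 56.7 there and 7.85 to 10.2 on the other arrays of the group. For Klrd1 the same array was far from the rest, with a gap of 0.835 of the range, at 2.25 against 0.316 to 0.436.

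For the brighter Klrk1 probe the far array was old_AL 1, with a gap of 0.869 of the range, at 465 against 34.8 to 48.9. This is the array whose signal and uneven spots were unlike the rest. Of 36 probe and group combinations looked at for the genes described here, 3 were marked in this way, and chance marks about 1 in 20 groups. For other genes, named for a small p with age or a like profile, 17 of 100 such combinations were marked, a larger share. The count of marks therefore does not set the genes described here apart from those.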

How the results depend on the processing

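Arrays old_AL 1 and old_AL 2 both moved the standard errors, and old_AL holds at most 4 rats, so these comparisons cannot separate a group effect from single rats. The median difference of the 8 genes kept its direction with age (0.67 to 2.08) and for old_CR against old_AL (-2.01 to -0.52) in the 26 alternatives of each, and lay between -0.03 and 0.20 for old_CR against young_AL. None of the causes of the changes below was tested, apart from fewer arrays or genes in a fit.

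With age, 0 of the 8 genes were called, against 1 of them with all 12 arrays under array weights (Ctsw), 2 with median centring (Prf1, Ctsw), 2 with an intensity trend (Prf1, Ctsw) and 5 with normexp (Ctsw, Gzma, Il2rb, Klrk1, Prf1). Normexp also called 5 for old_CR against old_AL (Gzma, Gzmk, Il2rb, Klrk1, Prf1). Leaving out each further array gave 0 to 1 with age and 0 to 3 for old_CR against old_AL, the higher count in each without old_AL 2.

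Over all genes the count of 624 with age became 3 on 12 arrays, 995 on 12 with array weights, 1270 with quantile normalization, 2427 with median centring, 3797 with normexp, 27 with the compared groups alone, 1080 with an intensity trend, 945 with array weights and 67 to 392 with each array left out. The count of 222 for old_CR against old_AL became 0 on 12 arrays, where 1291 genes had an unadjusted p below 0.05 by limma, 899 on 12 with array weights, 618 with quantile normalization, 1464 with median centring, 4693 with normexp, 123 with no filter, 343 with the filter asking for every array, 0 with the compared groups alone, 856 with an intensity trend, 1269 with array weights and 1 to 931 with each array left out. The count of 484 for old_CR against young_AL became 3 on 12 arrays, 1961 on 12 with array weights, 211 with no filter, 855 with the compared groups alone, 748 with an intensity trend, 1778 with array weights and 40 to 875 with each array left out. With the replicate number as a block, a pairing that the labels do not state, the 3 counts were 20, 1 and 21, and 0 of the 8 genes were called.

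With old_AL 1 kept and old_AL 2 left out, chosen after seeing the data, Gzma turned to -0.31 with age and to 0.13 for old_CR against old_AL, and the counts over all genes were 2 and 3. For old_CR against young_AL the differences near 0 changed sign in places. Prf1 was -0.15 on 12 arrays with array weights and -0.17 on 11, Klrk1 was 0.0062 and 0.0063 under the same settings, 0.00039 with median centring and 0.20 as the mean of its probes, and Gzmk was 0.0016 with normexp. With each array left out, Prf1 ran from -0.09 to 0.40 (-0.080 without young_AL 2, -0.086 without old_CR 1 and -0.020 without old_CR 3) and Gzmb from -0.04 to 0.35 (-0.042, -0.023 and -0.031 without young_AL 3, young_AL 4 and old_CR 1). Gzmk ran from -0.28 to 0.09 (0.033 and 0.092 without old_CR 3 and old_CR 4), and Klrk1 from -0.036 to 0.045 (0.037 and 0.045 without young_AL 1 and old_CR 2).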

Other observations

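The gene that exceeded the other 10 arrays most on old_AL 2 was outside every list used. Alox15, an arachidonate lipoxygenase of macrophages and eosinophils, exceeded the next array 18.2-fold there. Gpr15lg, the ligand of a lymphocyte homing receptor, did so 6.46-fold, and Cd52, a surface glycoprotein of lymphocytes, 4.12-fold. Rhd, a red cell membrane protein, did so 3.23-fold. These genes were picked from the 73 after their values were seen, and none of the 3 comparisons of groups rests on them.

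Array old_AL 1 also read Il2rg, the chain shared by several interleukin receptors, at 8776 against 219 to 366 on the other 11 arrays, and Ncr3, an NK receptor gene, at 11.6 against 0.131 to 0.390.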
